A study of Mus musculus with 32 samples.

Results

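Igf1 and Socs2 are target genes of growth hormone in the liver, and the chromatin around them was examined in livers with and without a glucocorticoid. Growth hormone from the pituitary binds its receptor on hepatocytes and activates the kinase JAK2, which phosphorylates the transcription factor STAT5. Igf1 encodes insulin-like growth factor 1, the secreted peptide that carries much of the hormone's effect on body growth. Socs2 encodes a suppressor of cytokine signalling, which is induced by growth hormone and dampens signalling from its receptor. The glucocorticoid receptor (GR) is a ligand-activated transcription factor, and C/EBPβ belongs to the leucine zipper family of transcription factors and is abundant in hepatocytes. STAT5 was not profiled in the lists used here.

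The members are the deposited intervals of mm9 whose centre lies in 1 of 2 windows, chr10:87250000-87480000 (230 kb, Igf1) and chr10:94600000-94950000 (350 kb, Socs2 and the GR-dense region next to it). The windows were chosen by position with results of these lists known, the Socs2 window in part for its number of GR peaks, so all counts below are descriptions and none is tested. Of 180039 intervals in the 5 lists, 202 are members, 76 in the Igf1 window and 126 in the Socs2 window. No mm9 gene annotation was used here, so the gene names of the windows come from that choice and could not be checked against the files, and no interval is placed in an exon, intron or promoter. By gene order in RefSeq (GRCm38.p6), the protein-coding neighbours of Socs2 are Cradd and Mrpl42. The Socs2 window may therefore hold sequence of a neighbouring gene. Below, around or near Igf1 or Socs2 means anywhere in that window, and no interval is assigned to a gene.

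The animals of all groups were male C57BL/6 mice, 8 weeks old, whose adrenal glands had been removed, in control and treated groups alike. Treated mice received dexamethasone (dex, a synthetic GR ligand) at 1 mg/kg as a cyclodextrin complex in 300 ul into the peritoneum, control mice received cyclodextrin alone (vehicle), and livers were taken after 1 h. DNase I hypersensitive sites (DHS, accessible chromatin) and C/EBPβ peaks were listed for each treatment, and the GR list names no treatment. Without adenovirus, each of the DNase-seq, GR and C/EBPβ groups has 2 samples, but each assay and condition has 1 list of positions without heights or counts. Depth is therefore unknown, there is no replicate check, and absence from a list does not show absence of signal. Whole liver holds several cell types, and an interval cannot be assigned to one of them. Shares carry exact (Clopper-Pearson) 95% binomial intervals, which cover counting error only, and neighbouring intervals of one locus are not independent. The lists hold 11666 GR peaks, 22714 vehicle and 25392 dex C/EBPβ peaks, and 56794 vehicle and 63473 dex DHS over the whole genome.

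In the Igf1 window each of the 8 GR peaks lay in chromatin that was already listed as accessible with vehicle, as did 79.2% of all GR peaks. Of these 8, 6 lay on a C/EBPβ peak also listed with vehicle, as did 50.4% of all, and neither share of the window differed from the whole list beyond its counting interval. In the Socs2 window 8 of 17 GR peaks lay in DHS listed with dex alone, against 15.6% of all GR peaks, and DHS numbered 41 with dex against 24 with vehicle. The difference between the windows was not tested, and the intervals of their shares overlap. C/EBPβ peaks in the Socs2 window numbered 26 with dex and 18 with vehicle, while the Igf1 window had 14 and 15. DHS in the Igf1 window numbered 18 with dex and 21 with vehicle. These DHS numbers count list entries, and some entries overlap others of the same list. In the Socs2 window 3 of the 41 dex entries were 150 bp wide and overlapped a neighbouring entry, while 0 of the 24 vehicle entries were 150 bp wide. In the Igf1 window 3 of the 21 vehicle entries formed a continuous stretch by overlapping. Separate regions are thus fewer than these entries. Over the whole lists DHS numbered 63473 with dex and 56794 with vehicle, and C/EBPβ peaks 25392 and 22714. Of the 26 dex C/EBPβ peaks in the Socs2 window, 30.8% (14.3 to 51.8) were absent from the vehicle list. That interval includes the 20% of the whole dex list.

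**Figure D1:**
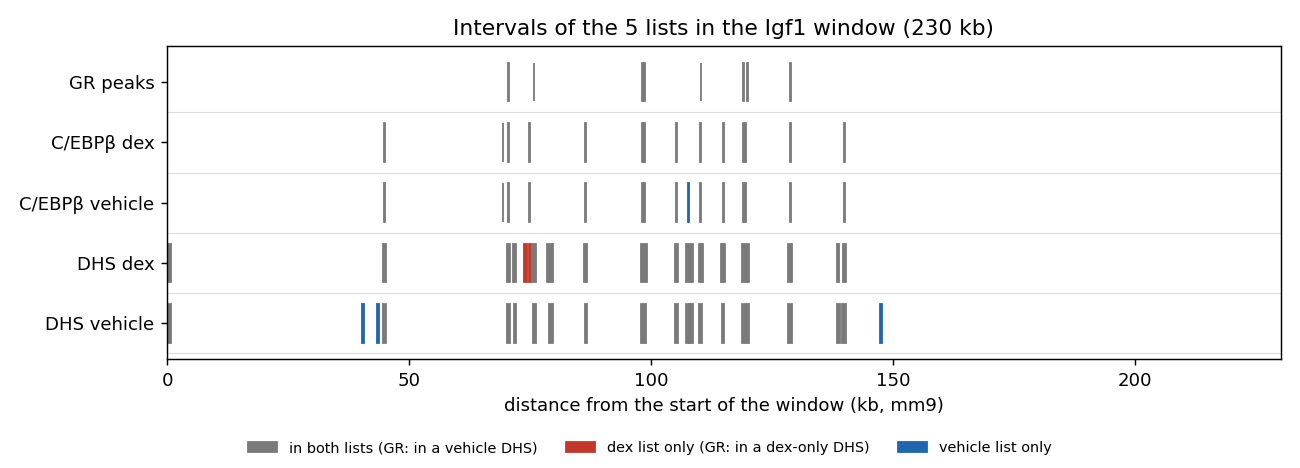
Positions of the intervals of the 5 lists in the Igf1 window, as distance from its start in kb (marks have an outline so that narrow intervals stay visible). Grey marks intervals in both treatments' lists (for GR, a peak in a vehicle DHS), red those in the dex list only and blue those in the vehicle list only; the 8 GR peaks are all grey and the part beyond 150 kb is empty in every list.

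The 8 GR peaks of the Igf1 window formed a compact group of 58.4 kb, between 70.5 and 129 kb from the start of the window. The nearest GR peak before the group was 146 kb away (centre to centre) and the nearest after it 592 kb away, so the edges of the window did not divide the group. Beyond chr10:87397203-87397698, a DHS of the vehicle list, the window held no interval of any list.

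The first GR peak, at chr10:87320414-87320564, had its centre 29 bp from a C/EBPβ peak found in both lists and lay in a DHS of 595 bp with dex and 674 bp with vehicle. The second, at chr10:87325707-87325857, had no C/EBPβ peak, the nearest centre being 1004 bp away. A pair of peaks at chr10:87348188-87348338 and chr10:87348560-87348710, 372 bp apart, shared a DHS, and each lay on a C/EBPβ peak of its own (centres 17 and 10.5 bp apart). Each GR peak of that pair thus had a C/EBPβ peak of both lists beside it.

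Further on, the peak at chr10:87360198-87360348 was 33.5 bp from a C/EBPβ centre. The next peaks, chr10:87368986-87369136 and chr10:87369758-87369908, were 772 bp apart within the widest DHS of the window (1505 bp with dex, 1444 bp with vehicle). The former overlapped a C/EBPβ peak (72 bp between centres), and the latter did not, its nearest C/EBPβ centre being 296.5 bp away. The last, chr10:87378641-87378791, was 5.5 bp from a C/EBPβ centre, the closest coincidence of the 8.

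Every GR peak of the Igf1 window was thus in a vehicle DHS (8 of 8, 100%, 63.1 to 100), where 79.2% of all GR peaks were. On a vehicle C/EBPβ peak lay 6 of 8 (75%, 34.9 to 96.8), against 50.4% of all GR peaks. Those 6 were both in a vehicle DHS and on vehicle C/EBPβ, a combination held by 49% of all GR peaks. GR peaks on a C/EBPβ peak of the dex list alone numbered 0 of 8 (0 to 36.9), against 11.9% over the whole list. With 8 peaks, the intervals for vehicle DHS and for C/EBPβ include the shares of the whole list.

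Some DHS around Igf1 were listed with 1 treatment only. Dex-only DHS, meaning DHS of the dex list that share no base with a vehicle DHS, were 2 of 18 (11.1%, 1.38 to 34.7), below the 23.8% of the whole dex list but with an interval that includes it. They were neighbours, chr10:87323701-87324359 (658 bp) and chr10:87324647-87325175 (528 bp), and neither held a GR peak. The latter held a C/EBPβ peak, chr10:87324703-87324854, that was in both lists, so C/EBPβ was listed there with vehicle although no vehicle DHS was. The GR peak at chr10:87325707-87325857 was the next one to their right.

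Vehicle-only DHS numbered 3 of 21 (14.3%, 3.05 to 36.3), close to the 14.9% of the whole vehicle list. These were chr10:87290167-87290667, chr10:87293371-87293791 and chr10:87397203-87397698, between 420 and 500 bp wide, and none held a GR or C/EBPβ peak. They stood at the outer sides of the group of GR peaks. Among the autosomal windows of 230 kb (laid end to end), 44.3% held at least 2 dex-only DHS (mean 1.75) and 11% at least 3 vehicle-only DHS (mean 0.993), so the Igf1 window was not low in either.

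C/EBPβ around Igf1 was nearly the same set in both lists. Of 14 dex peaks 0 were absent from the vehicle list (0 to 23.2%), against 20% of all dex C/EBPβ peaks. Of 15 vehicle peaks 1 was absent from the dex list (6.67%, 0.169 to 31.9), against 10.6% genome-wide. That peak, chr10:87357567-87357717, lay at a place where 1 dex DHS of 1454 bp, chr10:87357117-87358571, spanned 3 consecutively overlapping vehicle entries of 790, 150 and 542 bp. It held no GR peak. The C/EBPβ lists share coordinates wherever they share a peak, so both were drawn from 1 merged set and differences in position between them cannot be read.

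**Figure D2:**
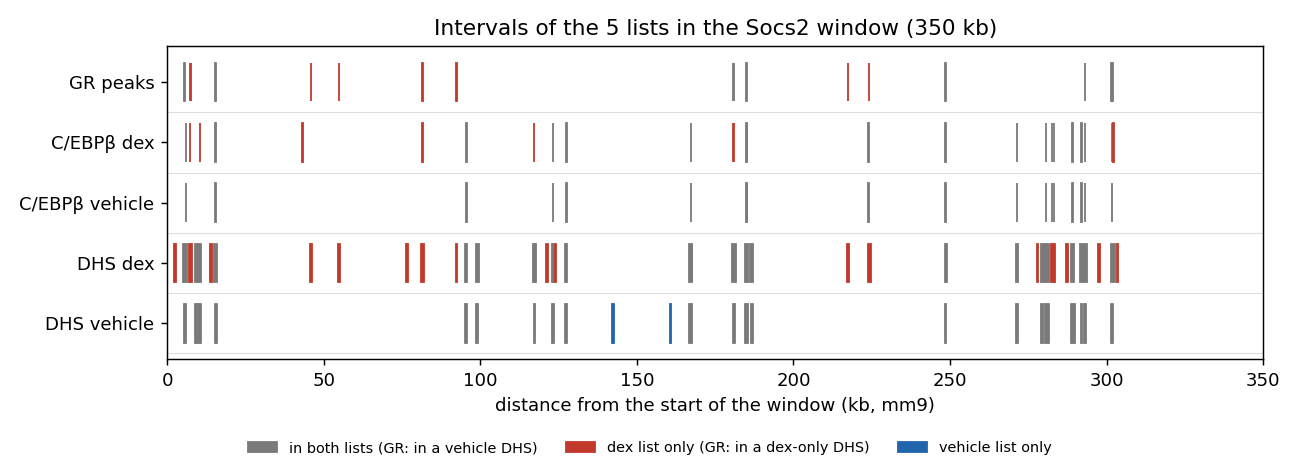
Positions of the intervals of the 5 lists in the Socs2 window, as distance from its start in kb, with colours and outlines as in the map of the Igf1 window. Red marks (dex list only) are spread over the window: 17 DHS, 8 C/EBPβ peaks and, in such DHS, 8 GR peaks, of which 6 lie in the first 100 kb.

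In the Socs2 window the 17 GR peaks spanned 296 kb. The GR peak before this group was 333 kb away and the one after it 243 kb away. Along the window, the first 50 kb held 5 GR peaks, the second 50 kb 3, the third 0, the next 2 of them 3 each, the one after 1 and the last 2. The longest stretch without a GR peak, 88.4 kb between centres, separated 8 peaks on its left from 9 on its right. It was not empty, since DHS and C/EBPβ peaks of both lists lay in it.

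The 8 GR peaks in dex-only DHS were mostly on the left of that stretch. The first were chr10:94607210-94607360 and chr10:94607588-94607738, 378 bp apart in a dex-only DHS of 902 bp. The former lay on a C/EBPβ peak of the dex list alone (23 bp between centres), and the latter on none (355 bp to the nearest). Vehicle C/EBPβ was not near: the closest vehicle centres were 1276 and 1654 bp away.

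Then followed 4 single peaks. At chr10:94645862-94646012 the DHS was 489 bp wide and the nearest dex C/EBPβ centre 2783 bp away. At chr10:94654714-94654864 the DHS was 743 bp wide and the nearest was 11635 bp away. At chr10:94681490-94681640 the DHS was 840 bp wide and a dex-only C/EBPβ peak lay 17 bp away, while vehicle C/EBPβ came no nearer than 13964.5 bp. At chr10:94692244-94692394 the DHS was 341 bp wide, the narrowest dex-only DHS of the window, and the nearest C/EBPβ centre was 3210.5 bp away. Of these, only the peak at chr10:94681490-94681640 thus coincided with C/EBPβ.

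On the right of the stretch, chr10:94817364-94817514 lay in a dex-only DHS of 585 bp and 6579 bp from the nearest C/EBPβ centre. The neighbouring chr10:94824047-94824197, in a dex-only DHS of 907 bp, overlapped the C/EBPβ peak chr10:94823933-94824103 (104 bp between centres), which was in both lists. That C/EBPβ peak was therefore listed with vehicle outside any vehicle DHS. It is the single GR peak of either window on vehicle C/EBPβ and outside a vehicle DHS.

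The 9 GR peaks in vehicle DHS included 5 on a vehicle C/EBPβ peak, 2 on a dex-only C/EBPβ peak and 2 on none. Those on dex-only C/EBPβ were chr10:94780612-94780762 and chr10:94780901-94781051, 289 bp apart in a DHS of 1156 bp with dex and 797 bp with vehicle. The first coincided exactly with its C/EBPβ interval (0 bp between centres) and the second was 34 bp from its own. The closest vehicle C/EBPβ centres to them were 4244 and 3955 bp away. The closest pair in the window, chr10:94901488-94901638 and chr10:94901776-94901926, 288 bp apart, shared a DHS of 1474 bp with dex and 744 bp with vehicle. Only the latter of these overlapped C/EBPβ, in both lists, with 98 bp between centres.

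In shares, 9 of 17 GR peaks of the Socs2 window (52.9%, 27.8 to 77.0) lay in a vehicle DHS and 8 of 17 (47.1%, 23.0 to 72.2) in a dex-only DHS. Over all GR peaks the shares were 79.2% and 15.6%, and both lie outside the intervals of the window. The 8 peaks in dex-only DHS lie in 7 DHS, so not all of them are independent. As the window was chosen in part for its GR peaks, the comparison is a description only. No GR peak of either window lay in no DHS, a class that holds 3.26% of all GR peaks. On a vehicle C/EBPβ peak lay 6 of 17 (35.3%, 14.2 to 61.7), on a dex-only C/EBPβ peak 4 (23.5%, 6.81 to 49.9), and on none 7 (41.2%, 18.4 to 67.1). These intervals include the shares over all GR peaks, 50.4%, 11.9% and 37.6%; for Igf1 the last class held 2 of 8 (25%). GR peaks in a dex-only DHS with no C/EBPβ peak were 5 of 17 (29.4%, 10.3 to 56.0), against 11.3% of all.

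**Figure D3:**
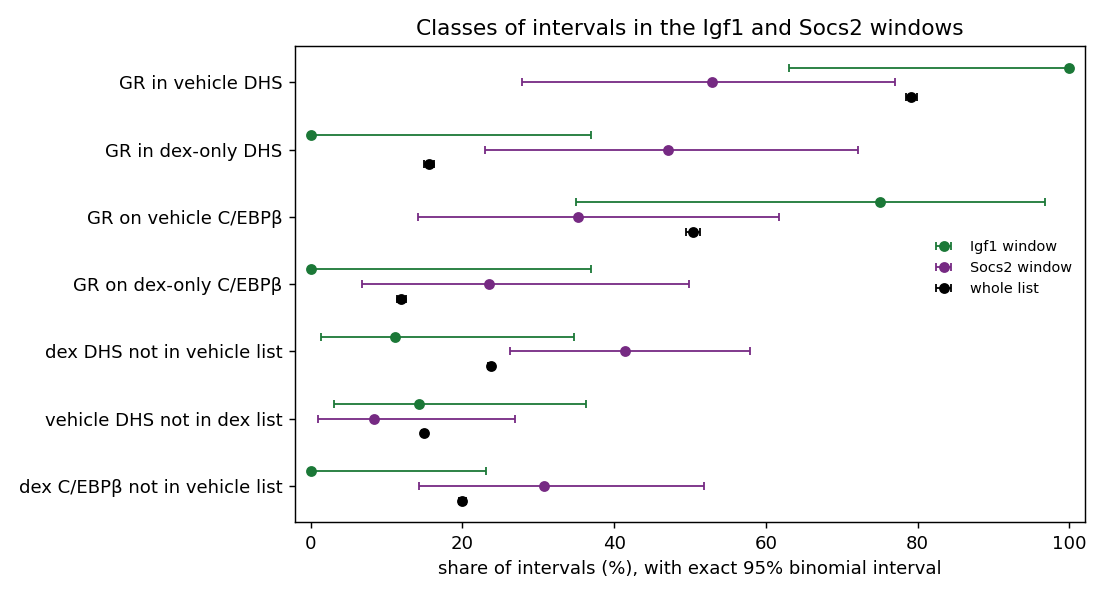
Shares of intervals in each class (%) for the Igf1 window, the Socs2 window and the whole list, with exact 95% binomial intervals. The Socs2 interval for GR peaks in dex-only DHS (23.0 to 72.2%) starts above the 15.6% of all GR peaks. The Igf1 intervals include the shares of the whole lists in the classes shown. All intervals cover counting error only, and the Socs2 window was chosen in part for its GR peaks.

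Dex-only DHS made up 17 of the 41 dex DHS of the Socs2 window (41.5%, 26.3 to 57.9), and the 23.8% of the whole list lies just below that interval. A GR peak lay in 7 of these 17 (41.2%, 18.4 to 67.1), against 11.9% of all dex-only DHS, and a dex C/EBPβ peak in 4 of 17 (23.5%, 6.81 to 49.9), against 11.1%. The share with GR was above that of all dex-only DHS beyond its counting interval, and the share with C/EBPβ was not. Among dex DHS with a vehicle partner, GR lay in 7 of 24 (29.2%, 12.6 to 51.1) in the Socs2 window and in 6 of 16 (37.5%, 15.2 to 64.6) in the Igf1 window, against 18.2% genome-wide. Over all dex DHS, GR lay in 14 of 41 (34.1%, 20.1 to 50.6) and in 6 of 18 (33.3%, 13.3 to 59.0), against 16.7%. Both windows were chosen with results of these lists known, the Socs2 window in part for its GR peaks. A share above that of the whole list is therefore no finding.

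Besides the GR-bound ones, 1 dex-only DHS of the Socs2 window held C/EBPβ without GR. It was chr10:94882287-94883429, at 1142 bp the widest dex-only DHS of the window, with 2 C/EBPβ peaks (chr10:94882497-94882647 and chr10:94883042-94883193) that were in both lists. As at chr10:87324647-87325175 near Igf1, C/EBPβ was listed there with vehicle and a DHS with dex only. The remaining 9 dex-only DHS held neither factor: chr10:94602209-94602726, chr10:94613714-94614242, chr10:94676375-94676820, chr10:94721022-94721529, chr10:94723865-94724217, chr10:94877676-94878215, chr10:94887047-94887646, chr10:94897260-94897835 and chr10:94903230-94903679. They were 352 to 599 bp wide and were spread over the window from its first to its last DHS. Of all dex-only DHS 11.9% held a GR peak and 11.1% a dex C/EBPβ peak, so most held neither. The exact share with neither was not computed for the whole list, and these 9 do not set the window apart.

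Vehicle-only DHS in the Socs2 window were 2 of 24 (8.33%, 1.03 to 27.0), against 14.9% genome-wide. They were chr10:94741999-94742546 (547 bp wide) and the narrower chr10:94760512-94760763, both inside the long stretch without GR, and neither held a GR or C/EBPβ peak. Of the 24 vehicle DHS, 13 held C/EBPβ of the same state (54.2%, 32.8 to 74.4), as did 11 of 21 in the Igf1 window (52.4%, 29.8 to 74.3). The share over all vehicle DHS was 31.1%, inside the Igf1 interval and below the Socs2 one.

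C/EBPβ peaks of the dex list alone were 8 of 26 in the Socs2 window (30.8%, 14.3 to 51.8), against 20% genome-wide, and vehicle-only ones 0 of 18 (0 to 18.5%), against 10.6%. A GR peak overlapped 4 of the 8 (50%, 15.7 to 84.3), where 27.5% of all dex-only C/EBPβ peaks had one: chr10:94607233-94607383, chr10:94681473-94681623, chr10:94780612-94780762 and chr10:94780867-94781017. The other 4 were chr10:94610350-94610500, chr10:94643079-94643229, chr10:94717123-94717273 and chr10:94902111-94902261. Of these, chr10:94643079-94643229 lay in no DHS of either list, and the rest lay in DHS of both. Of C/EBPβ peaks in both lists, GR overlapped 7 of 18 (38.9%, 17.3 to 64.3) in the Socs2 window and 6 of 14 (42.9%, 17.7 to 71.1) in the Igf1 window, against 28.9% genome-wide.

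Most C/EBPβ peaks of both windows lay in chromatin listed as accessible with vehicle. For the dex list this held for 12 of 14 in the Igf1 window (85.7%, 57.2 to 98.2) and 19 of 26 in the Socs2 window (73.1%, 52.2 to 88.4), against 81.1% genome-wide. It held for 5 of the 8 dex-only C/EBPβ peaks (62.5%, 24.5 to 91.5), against 67.5%. Of vehicle C/EBPβ peaks, 13 of 15 in the Igf1 window (86.7%, 59.5 to 98.3) and 14 of 18 in the Socs2 window (77.8%, 52.4 to 93.6) lay in a vehicle DHS, against 82.9% genome-wide. The intervals of all these shares include the shares of the whole lists.

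The median distance between centres was 31.3 bp in the Igf1 window with either list, and in the Socs2 window 1276 bp with the vehicle list and 98 bp with the dex list. Over all GR peaks these medians were 137 and 45 bp. A C/EBPβ centre within 50 bp was found for 5 of 8 GR peaks around Igf1 with both lists, and for 3 of 17 (vehicle) and 7 of 17 (dex) around Socs2. These are 62.5%, 17.6% and 41.2%, beside 42.4% (vehicle) and 51.9% (dex) of all GR peaks.

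**Figure D4:**
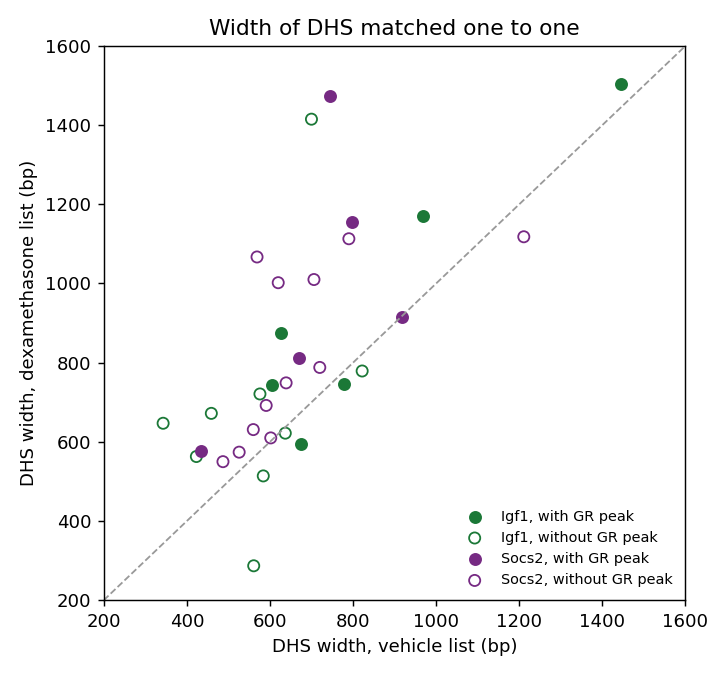
Width in bp of DHS with 1 partner in the other list, vehicle (x axis) against dex (y axis), for the Igf1 window (15 DHS) and the Socs2 window (17 DHS); filled points hold a GR peak and the dashed line marks equal widths. In the Socs2 window 15 of 17 points lie above the line, and in the Igf1 window 9 of 15.

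Accessible intervals present in both lists were compared by width, the one value the lists give for each interval. In the Socs2 window 15 of 17 DHS matched one to one were wider with dex (88.2%, 63.6 to 98.5), with a median log2 ratio of dex over vehicle width of 0.23 (quartiles 0.13 and 0.52). In the Igf1 window 9 of 15 were wider (60%, 32.3 to 83.7), with a median of 0.27 (quartiles -0.07 and 0.45). Over all matched DHS 51.1% were wider, with a median of 0.01 (quartiles -0.16 and 0.19). Among matched DHS with a GR peak the wider ones were 4 of 5 in the Socs2 window and 4 of 6 in the Igf1 window, against 70.8% genome-wide. Among those without GR they were 11 of 12 (91.7%, 61.5 to 99.8) and 5 of 9 (55.6%, 21.2 to 86.3), against 46.7% genome-wide. Around Socs2, DHS without a GR peak were thus mostly wider with dex as well. The interval of their share lies above the share of all such DHS but covers counting error only. These 12 DHS are neighbours in 1 window and come from 1 list per treatment, so they are no replicates and the difference was not tested.

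Among matched DHS with GR around Socs2, the largest ratio was at chr10:94901289-94902763, the DHS of the closest GR pair, with 744 bp in the vehicle list and 1474 bp in the dex list (log2 ratio 0.99). The DHS of the other pair, chr10:94780363-94781519, measured 797 bp with vehicle and 1156 bp with dex (0.54). Around Igf1 the largest with GR was at chr10:87359808-87360684, with 626 and 876 bp (0.48). The widest DHS of the Socs2 window, chr10:94891617-94893622 (2005 bp), held a GR peak on C/EBPβ and spanned 2 vehicle DHS of 586 and 697 bp, so it has no single partner. Without GR, chr10:87328365-87329780 near Igf1 measured 1415 bp with dex and 700 bp with vehicle (1.02), and chr10:87388457-87388744 measured 287 and 561 bp (-0.97), the largest difference in each direction around Igf1.

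In sum of length, DHS covered 13.1 kb of the Igf1 window with vehicle (5.69%) and 14.5 kb with dex (6.30%). In the Socs2 window they covered 16.0 kb with vehicle (4.57%) and 30.4 kb with dex (8.68%). Mean widths with vehicle and dex were 624 and 805 bp around Igf1 and 667 and 747 bp around Socs2. In the latter there were 41 intervals with dex and 24 with vehicle. Over the whole lists the mean width was 650 bp with vehicle and 649 bp with dex. Covered length was not computed for the whole lists.

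Equal-sized windows of the autosomes, laid end to end and holding at least 1 interval of any list, gave the background for the counts. These windows lie on a fixed grid, while the Igf1 and Socs2 windows were chosen with results of these lists known. That choice can favour the Igf1 and Socs2 windows in any ranking. Among 8239 windows of 230 kb, the median held 0 GR peaks and the mean 1.40, and 3.16% held at least the 8 of the Igf1 window. At least as many vehicle C/EBPβ peaks (15) were in 0.801% and dex C/EBPβ peaks (14) in 2.14%. Vehicle DHS (21) were reached in 2.32% and dex DHS (18) in 8.54%. Of the 5 counts of the Igf1 window, that of vehicle C/EBPβ peaks was reached by the fewest windows.

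Among 5848 windows of 350 kb, the median held 1 GR peak and the mean 1.97, and 0.274% (16 windows) held at least the 17 of the Socs2 window. The share was 1.28% for vehicle C/EBPβ (18), 0.256% for dex C/EBPβ (26), 6.72% for vehicle DHS (24) and 0.171% for dex DHS (41). Overlapping DHS entries of a list were not merged, in the background windows or in the Socs2 window. At least 17 dex-only DHS were found in 3 windows (0.0513%), at least 8 dex-only C/EBPβ peaks in 27 (0.462%), and at least 8 GR peaks in dex-only DHS in 1 (0.0171%). These shares were thus lower for the dex lists than for the vehicle lists. For C/EBPβ the gap was small on chromosome 10 alone, with 1.25% (dex) and 1.88% (vehicle). Since the window was chosen in part for its GR peaks, its high rank in GR peaks and in sites bound by GR is no finding.

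**Figure D5:**
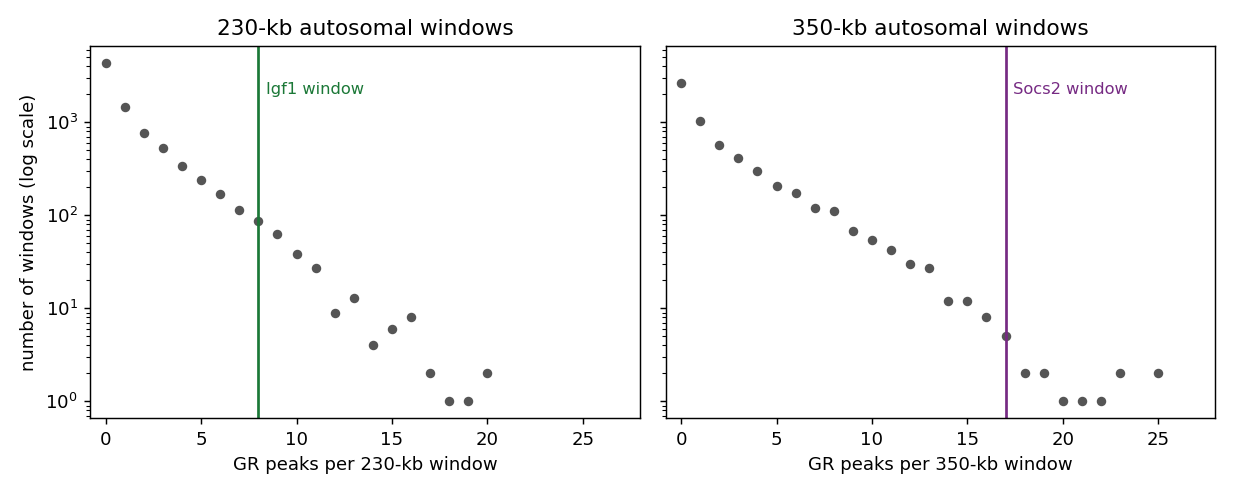
Number of autosomal windows (log scale) by their number of GR peaks, for windows of 230 kb (left) and 350 kb (right), each holding at least 1 interval of any list; vertical lines mark the Igf1 window (8 GR peaks) and the Socs2 window (17). In 3.16% and 0.274% of the windows, respectively, the number was at least as high.

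Of the 260 windows of 230 kb with at least 8 GR peaks, 44 (16.9%) had every GR peak in a vehicle DHS, as the Igf1 window did. That condition is harder to meet with more peaks, and 174 of the 260 windows held more than 8, so the comparison is not like for like. Of the 16 windows of 350 kb with at least 17 GR peaks, 1 (6.25%) had at least the Socs2 window's share of GR peaks in dex-only DHS. Of the 10 windows of 350 kb with at least 41 dex DHS, 1 (10%) had at least its share of dex-only ones. The small number of windows rich in GR peaks or in dex DHS limits what the last 2 shares can show.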

How the data were processed

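The authors deposited 5 interval lists in mm9 that give positions and a serial number for each interval, and no count, score or signal. CASAVA 1.8 and build mm9 are named in the submitters' processing notes. For the aligner, peak caller, threshold and pooling of samples, nothing is given in the labels used here. All GR intervals were 150 bp wide. Positions are printed as in the files, whose counting base (0 or 1) is not stated, and intervals were treated as half-open. The number of columns of per-sample values left unused was 0. The adenovirus, RNA polymerase II and input samples were not analysed here.

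Intervals were members when their centre lay in a window. Overlap meant at least 1 bp. DHS were matched one to one where each overlapped the other and nothing else. Background windows were laid end to end from position 0 of the 19 autosomes, leaving out those that touch the Igf1 or Socs2 window. Shares have exact binomial intervals (95%). No test was run. The genes, windows and comparisons were chosen with earlier results of these data known. Regions named singly were those of the rule: GR peaks around Igf1; around Socs2 GR peaks in dex-only DHS, on C/EBPβ peaks of 1 list, or closest together; intervals of 1 list only; and the widest DHS. Matched DHS and C/EBPβ peaks of both lists outside that rule were named after their values were seen. The code was checked on planted intervals, where 6 of 6 planted quantities came back exactly. Other genes of the growth hormone axis and sequences of the intervals were not used here, since no mm9 annotation or genome was at hand. Computation used Python 3.11.15, numpy 2.4.6, pandas 2.3.3, scipy 1.17.1 and matplotlib 3.10.9.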

Additional observations from a re-analysis of the deposited data

How the results depend on the processing

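Of 130 alternative values for 44 results, 97 stayed near the main one and 33 moved (counts by over 1.5 times, rank shares beyond their counting interval). The classes of GR peaks by DHS, 8 in vehicle DHS around Igf1 and 9 and 8 around Socs2, stayed within 1.5 times under each overlap rule and, chosen after seeing the data, without the DHS of 2 fixed narrow widths. With C/EBPβ allowed within 500 bp, GR peaks without C/EBPβ fell to 1 around Igf1 and 4 around Socs2. A wider allowance can only lower such counts, and the share over all GR peaks was not computed under it.

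Only DHS at or above the median width gave, around Igf1, 4 dex-only, 10 shared and 0 vehicle-only DHS, and around Socs2 9, 15 and 0. Around Igf1 this turned the order of dex-only and vehicle-only DHS, which were 2 and 3 with all DHS. DHS of 300 bp gave 5 vehicle-only DHS around Igf1 and 4 around Socs2, where dropping those of 2 fixed narrow widths gave 1. Counting DHS within 500 bp as shared, added after seeing the data, left 1 dex-only DHS around Igf1. By summed length of all DHS, also those of 1 list only, the log2 ratio of dex over vehicle was 0.15 around Igf1 and 0.93 around Socs2. The median ratios of matched width were 0.27 and 0.23. Summed length depends on the number of intervals as well as on their width, so it is not a like measure.

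Rank shares for Igf1, in the order GR, vehicle and dex C/EBPβ, vehicle and dex DHS, were 2.42%, 0.615%, 1.64%, 1.78% and 6.56% with empty windows counted, and 6.69%, 1.70%, 4.53%, 4.86% and 17.7% among windows with a GR peak. On chromosome 10 alone the last 3 were 3.53%, 3.53% and 9.93%. For Socs2, windows with a GR peak gave 0.501%, 2.35%, 0.470% and 12.1% for the first 4, empty windows gave 5.57% for vehicle DHS, and chromosome 10 gave 1.88% and 1.25% for vehicle and dex C/EBPβ.

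A stricter peak threshold was not run, as the lists hold no score, and leaving out a replicate was not possible. No paired analysis was possible because each list stands for a condition and has no replicate columns. Depth is unknown.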
